A study of Drosophila melanogaster with 4 samples.

Results

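The regions described here are all 1563 intervals that the authors' peak caller found enriched for γH2AvD over input after RNAi against the linker histone dH1, out of 1926 deposited regions within the limit on the false discovery rate (FDR). They were taken as every row of the list whose header names the γH2AvD ChIP library of dH1 RNAi cells as sample and the input library of the same cells as control. The cells were Drosophila S2 cells, an established line of embryonic origin, given 100 µg of double-stranded RNA against dH1 on days 1, 4 and 7 of an incubation lasting 8 days. The chromatin was precipitated with a polyclonal rabbit antibody, and each library was made from 10 ng of DNA with 15 cycles of PCR. The comparison list came from WT S2 cells (γH2AvD ChIP against WT input, 297 regions), for which no control double-stranded RNA is named, so the effect of adding double-stranded RNA and that of losing dH1 cannot be told apart. With 1 library of each kind there is no replicate error, and no difference between conditions was tested. The sources used here do not give the remaining dH1 level.

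γH2AvD is the phosphorylated form of H2Av, the only H2A variant of Drosophila, which takes the place of both H2A.X and H2A.Z of mammals. Kinases of the DNA damage response phosphorylate it around double-strand breaks, and the mark spreads into flanking chromatin. Linker histone dH1 binds the nucleosome and its entering and leaving DNA. It is abundant in pericentric heterochromatin, where it takes part in the silencing of transposons. Unplaced scaffolds, the Het scaffolds and the sequence next to the centromeres are rich in transposons and satellites, whereas the arms are mostly single-copy sequence.

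Positions are on the dm3 build, counted from 1. Each region has its number of ChIP and of input reads, as whole numbers and without scaling for depth. The depth of the libraries is unknown, so a ratio of ChIP to input reads of 1 is not a neutral point, and ratios rank regions within the list only. Intervals beside single ratios are exact 95% intervals for a pair of Poisson counts, those beside shares are exact Clopper-Pearson 95% intervals, and both cover counting error only.

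The dH1 RNAi regions fell into 2 groups by how much of their sequence was in the input. Input counts clustered around 100 reads and again between about 300 and 550 reads, with few in between: 863 regions had 50 to 150 input reads, 135 had more than 150 and up to 250, and 409 had more than 250 and up to 550. With 200 reads as the dividing line, 970 regions (62.1%, 59.6 to 64.5) lay in the first group and 593 in the second, which is 37.9% of the list. The first group was mostly chromosome arm sequence, with 818 of its 970 regions in the arms away from telomeres and centromeres. It also held 56 regions of the centromere-proximal 1 Mb, 54 of unplaced sequence, 23 of the Het scaffolds and 19 of chromosome 4. The second group held 322 regions of unplaced sequence, 191 of the arms, 45 of the Het scaffolds, 26 of the centromere-proximal 1 Mb, 5 of the mitochondrial genome, 3 of chromosome 4 and 1 of the telomeric 100 kb.

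**Figure D1:**
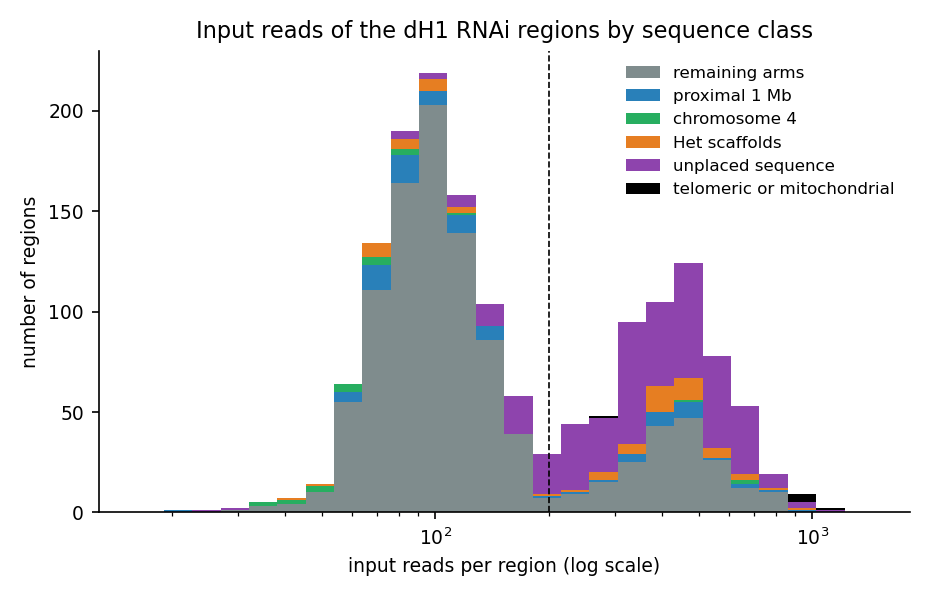
Number of dH1 RNAi regions (y axis) by input reads per region (x axis, log scale), stacked by sequence class; the dashed line marks 200 reads. The 863 regions with 50 to 150 input reads are mostly arm sequence, and most of the 593 regions above 200 reads lie in unplaced sequence.

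Across the list, ChIP reads rose with input reads while the ratio fell. The 26 regions with 50 or fewer input reads had a median of 87.5 ChIP reads and a median ratio of 2.25 (interquartile range 1.83 to 3.03). The 530 regions with 51 to 100 input reads had a median ratio of 1.19 (1.08 to 1.38), and the 414 with more than 100 and up to 200 had 0.929 (0.855 to 1.01). The 262 regions with more than 200 and up to 400 input reads had a median ratio of 0.610 (0.566 to 0.698), and the 331 above 400 had 0.546 (0.523 to 0.585). ChIP reads were at least as many as input reads at 632 of all 1563 regions, 40.4% of the list. By input count these were 26 of 26, 490 of 530 and 116 of 414 regions in the 3 lower strata, and 0 of 593 above 200 input reads.

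The lower edge of the list moved in the same way. No region with 51 to 100 input reads had fewer than 75 ChIP reads, and that lowest count was 93 in the next bin of 50 input reads, 190 at 351 to 400 and 225 at 451 to 500. The lowest ratio fell from 0.929 to 0.495 between the first and the last of these bins. Many regions lay close above the edge: the median ChIP count was 94 at 51 to 100 input reads and 253.5 at 451 to 500. Spearman's correlation of input with ratio over the 1563 regions was -0.92, and that of ChIP with input reads was 0.888. All points share the same pair of libraries, input is part of the ratio, and both values are descriptions.

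**Figure D2:**
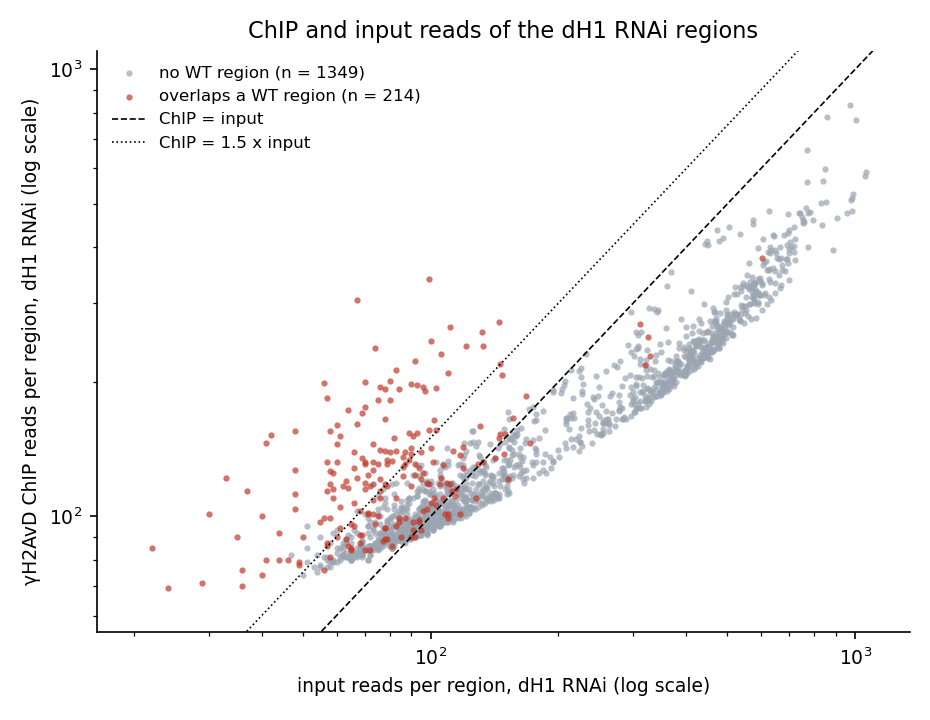
γH2AvD ChIP reads (y axis, log scale) against input reads (x axis, log scale) for each of the 1563 dH1 RNAi regions; red points overlap a WT region, and the lines mark ratios of 1 and 1.5. The points follow a sharp lower edge, and the red points lie mostly above the line of 1.5, at low input.

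The strongest γH2AvD regions for their input stood well above the edge and lay on different chromosomes. At 8537451 to 8539100 of 3R, 305 ChIP reads over 67 input reads gave a ratio of 4.55 (3.48 to 6.02), the highest of the list. Next came 21500951 to 21501850 of X, in the centromere-proximal 1 Mb, with 85 over 22 reads and a ratio of 3.86 (2.39 to 6.49). At 3376301 to 3377450 of 2L the counts were 122 and 33 (3.70, 2.50 to 5.61), and at 63851 to 65000 of chromosome 4 they were 152 and 42 (3.62, 2.56 to 5.22). Their intervals overlap, so counting error alone does not fix the order of these 4.

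Regions of the same kind at 51 to 100 input reads were 23118101 to 23119600 of 3L, with 199 and 56 reads and a ratio of 3.55, and 1396001 to 1397500 of 3LHet, with 339 and 99 reads and a ratio of 3.42. Between 100 and 200 input reads the highest ratio was 2.39 (1.91 to 3.01), at 31851 to 35600 of 2LHet, followed by 2.18 at 22960401 to 22962150 of 2L and 1.98 at 6004351 to 6005700 of 2R. All 9 of these regions, the 4 strongest of the list included, overlapped a WT region. Above 200 input reads the highest ratio was 0.996, with 231 and 232 reads at 28615001 to 28616200 of Uextra, and above 400 it was 0.922, with 436 and 473 reads at 14463201 to 14465900 of 2R. Neither overlapped a WT region. At the other end, the lowest ratio of each stratum was 1.48 at 19245701 to 19246250 of 3L (74 and 50 reads), 0.929 at 16156501 to 16157150 of 2R, 0.667 at 10033451 to 10034350 of U, 0.519 at 16697601 to 16698250 of Uextra and 0.446 at 11901 to 12700 of the mitochondrial genome.

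The ratio of a dH1 RNAi region went with whether the region had also been called in WT cells. Over the whole list 13.7% of regions overlapped a WT region by at least 1 bp. Among the 52 regions with a ratio of 2 or more, which are 3.33% of the list, 52 did (lower bound 93.2%). At ratios from 1.5 to below 2 the overlap was 69 of 79 regions (87.3%, 78.0 to 93.8), and from 1 to below 1.5 it was 75 of 501 (15.0%, 11.96 to 18.4). From 0.8 to below 1 it was 13 of 327, from 0.6 to below 0.8 it was 5 of 225, and below 0.6 it was 0 of 379 (exact upper bound 0.969%). Put together, 121 of 131 regions at or above a ratio of 1.5 (92.4%, 86.4 to 96.3) and 93 of 1432 below it (6.49%, 5.27 to 7.90) were shared. The WT and dH1 RNAi lists have no library in common. The lowest ratio of the WT list was 1.10, so its own lower edge is part of this pattern, and absence from it does not show absence of the mark in WT cells.

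**Figure D3:**
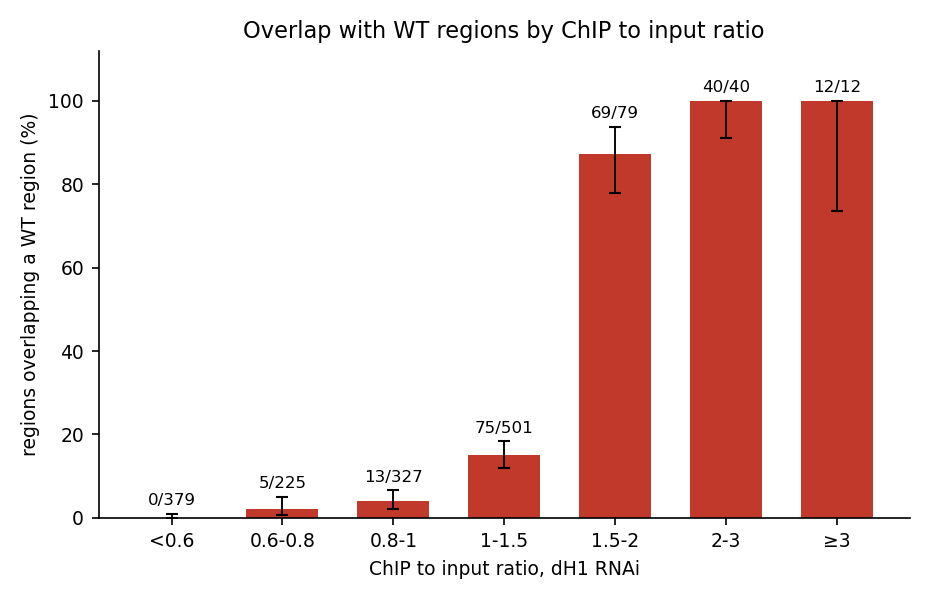
Share of dH1 RNAi regions that overlap a WT region (y axis, percent) by their ChIP to input ratio (x axis); bars give the share, error bars exact 95% intervals for counting error, and labels the number overlapping and the number of regions. The share passes from 15.0% at ratios of 1 to below 1.5 to 87.3% at 1.5 to below 2.

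At 200 or fewer input reads, the shared fraction also differed between the ratio ranges within the arms and within the proximal 1 Mb, and the other classes held too few regions to show it. In the arms away from telomeres and centromeres, 64 of 461 regions with a ratio of 1 to below 1.5 were shared (13.9%, 10.9 to 17.4), against 47 of 56 at 1.5 to below 2 (83.9%, 71.7 to 92.4) and 22 of 22 above that. In the proximal 1 Mb the numbers were 5 of 20 and 13 of 14, with 7 of 7 above. On chromosome 4, a small and largely heterochromatic chromosome, they were 2 of 4 and 4 of 4, and on the Het scaffolds 4 of 6 and 5 of 5, with overlapping intervals in both. From 0.8 to below 1, 7 of 247 regions were shared in the arms and 5 of 14 (35.7%, 12.8 to 64.9) in the proximal 1 Mb. The latter was not below the 5 of 20 (25%, 8.66 to 49.1) at 1 to below 1.5, and these intervals overlap. Among all regions at or below 200 input reads, 209 of 970 (21.5%) were shared. Chromosome 4 shared 16 of 19, the Het scaffolds 20 of 23 and the proximal 1 Mb 30 of 56. The remaining arms shared 140 of 818 and unplaced sequence 3 of 54. The median ratios of these regions were 2.11, 1.97, 1.21, 1.07 and 0.898 in the same order of classes. The limit of 1 Mb is fixed, and sequence just beyond it counts as arms. From 1 to 2 Mb, 13 of 20 regions of 2R and 3 of 12 of 3R were shared. How much pericentric sequence the arms class holds was not tested.

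The caller's own FDR, which rests on the same 2 libraries as the ratio, picked out a small set with high ratios. It took only 2 values in this list, 0.001 at 28 regions and 0.026 at 1535. The X and 2L regions with ratios of 3.86 and 3.70 were among those at 0.026. The 28 regions had a median ratio of 2.45 (interquartile range 2.16 to 2.74), a median of 200.5 ChIP and 83.5 input reads, and a median width of 1325 bp. All 28 overlapped a WT region, and none had more than 200 input reads. They comprised 10 regions in the arms, the 3R region with the highest ratio among them, 9 on the Het scaffolds, such as 600801 to 602050 of 3LHet (247 and 100 reads), 6 in the proximal 1 Mb and 3 on chromosome 4.

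Where a region was called in both lists, its rank within each was similar. Over the 214 shared regions Spearman's correlation between the dH1 RNAi ratio and the WT ratio was 0.811, and that between the input counts was 0.787, both as descriptions over regions from 1 set of libraries each. The 72 shared regions with the lowest dH1 RNAi ratios (0.629 to 1.33) had a median WT ratio of 1.75 (interquartile range 1.59 to 2.20). For the 71 with the highest (1.85 to 4.55) it was 4.07 (3.74 to 4.68), with no overlap of the interquartile ranges. The summit also fell at nearly the same place, with a median distance between the paired summits of 50 bp (interquartile range 0 to 150 bp), which is 1 step of the caller's sliding window. Summits lay within 100 bp at 143 of the 214 regions and over 500 bp apart at 11.

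**Figure D4:**
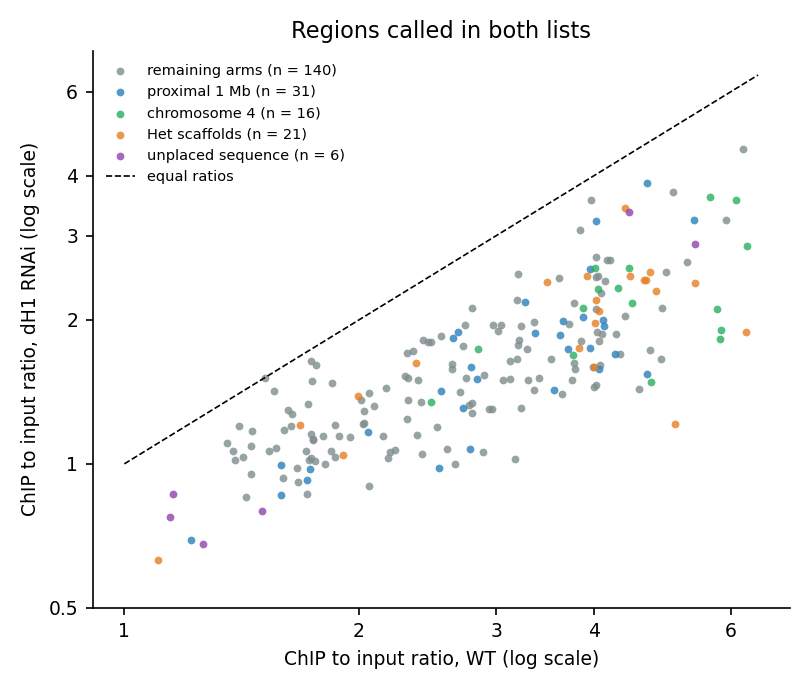
ChIP to input ratio after dH1 RNAi (y axis, log scale) against that in WT cells (x axis, log scale) for the 214 regions called in both lists, coloured by sequence class; the dashed line marks equal ratios. Regions with a high WT ratio also have a high dH1 RNAi ratio (Spearman 0.811), and the offset from the line includes the unknown depth of 4 libraries.

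Shared regions with fewer ChIP than input reads after dH1 RNAi numbered 18, with 92 to 603 input reads. Their WT ratios ran from 1.10 to 2.53. The lowest dH1 RNAi ratio was at 1517701 to 1525000 of 3RHet, where the counts were 379 over 603 after dH1 RNAi and 608 over 551 in WT cells. This dH1 RNAi region was 7300 bp wide and its WT counterpart 750 bp, so the counts may not cover the same sequence. The 22249251 to 22250000 region of 2L had 93 and 95 reads, beside 261 and 103 in WT cells, and was the one with the highest WT ratio of the 18.

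Regions with a ratio of 1.5 or more and no WT region numbered 10, a set singled out after its values were seen. Their ratios ran from 1.5 to 1.86, with 47 to 67 input reads. The highest was 17168701 to 17169700 of 2R, with 95 ChIP and 51 input reads (1.86, 1.31 to 2.67), which lay 223.4 kb from the nearest WT region. At 205951 to 207100 of 2L the counts were 82 and 47 (1.74, 1.20 to 2.55), and at 421751 to 422450 of the same arm they were 82 and 54 (1.52, 1.06 to 2.18). They lay 3112.3 and 2896.95 kb from the nearest WT region, towards the 2L telomere. At 8811301 to 8812050 of 2R there were 85 and 51 reads, at 18962451 to 18963300 of 2R 90 and 55, and at 9430051 to 9431050 of 2L 87 and 58. The other 4 lay on X and 3L, 9.05 to 88.75 kb from a WT region.

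Regions without a WT counterpart were not all far from one. At 200 or fewer input reads, 116 of 761 such regions (15.2%) lay less than 10 kb from a WT region, with a median distance of 120.45 kb. Above 200 input reads it was 10 of 588 (1.70%), with a median of 448.25 kb over the 581 that had a WT region on the same sequence. A further list was deposited, called with the WT ChIP as control for the dH1 RNAi ChIP. Its overlap with the dH1 RNAi regions lay almost all above 200 input reads, but not mainly at the lowest ratios. It took in 14 of 379 regions with a ratio below 0.6 (3.69%). From 0.6 to below 0.8 it was 26 of 225 (11.6%), and from 0.8 to below 1 it was 29 of 327 (8.87%). Its regions overlapped 69 dH1 RNAi regions (4.41%), 65 of them above 200 input reads, and 0 of 131 with a ratio of 1.5 or more. Unplaced sequence supplied 48 of the 69, out of its 376 regions (12.8%). All 5 mitochondrial regions were included, although mitochondrial DNA carries no histones. The remaining arms gave only 8, out of 1009 regions (0.793%), while Het scaffolds contributed 5 and the proximal 1 Mb 3. Whether the overlap reflects a gain of γH2AvD was not tested. The list called with the WT ChIP as control shares the dH1 RNAi ChIP library with this one.

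The regions were short, and wider ones held more ChIP reads. Widths ran from 550 bp, the lowest value, at 121 regions to 8100 bp, with a median of 950 bp (interquartile range 750 to 1200 bp). In the arms at 200 or fewer input reads, regions of 550 to 600 bp had a median of 91 input reads, those over 1000 and up to 1500 bp 97, and those above 2000 bp 129. ChIP reads went from 91 to 117.5 and 142 over the same widths, and the ratio from 1.00 to 1.17 and 1.06. Above 200 input reads, the median input was 348 at 550 to 600 bp and 589.5 above 2000 bp. Spearman's correlation of width with ChIP reads was 0.502 over the list and between 0.520 and 0.880 within the 5 strata of input reads. That of width with input reads was 0.264 over the list, between -0.11 and 0.140 in the 4 lower strata and 0.537 above 400 reads. These are descriptions over regions of 1 pair of libraries. Because it is not stated which part of a region the counts cover, they were not divided by width, apart from an alternative limit given at the end.

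The widest regions lay mostly in sequence with a high input. Of the 105 regions of 2000 bp or more, 63 had more than 200 input reads. The widest, 2086301 to 2094400 of 2RHet, was followed by 24456551 to 24464300 of 3L, in the proximal 1 Mb (7750 bp, 769 ChIP and 1004 input reads). Then came 1517701 to 1525000 of 3RHet (7300 bp) and 26900501 to 26907550 of 3R (7050 bp, 389 and 651 reads). The fifth, 22428951 to 22435800 of 2L in the proximal 1 Mb, was of another kind, with 272 and 145 reads, a ratio of 1.88 (1.53 to 2.31) and a WT counterpart. Summits were central in short regions and less so in wide ones: 77.8% of the 913 regions of up to 1000 bp and 30% of the 100 above 2000 bp had their summit between 0.4 and 0.6 of the width.

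The regions with the most reads were also high in input. The most ChIP reads, 833, lay at 787251 to 792250 of 3RHet over 971 input reads (0.858, 0.781 to 0.942). It was followed by 782 at 3311601 to 3315500 of X over 858, the 3L region of 7750 bp, 660 at 380001 to 382400 of Uextra over 768, and 598 at 597251 to 599300 of Uextra over 849. The most input reads were 1063 at 1101 to 5650 of the mitochondrial genome, 1053 at 5298751 to 5300100 of U, 1004 at the 3L region, 988 at 5289751 to 5292400 of U and, as a tie, 981 at 8201 to 9200 of the mitochondrial genome and at a further region that lies between those 2 of U. The 5 mitochondrial regions had 395 to 590 ChIP reads and ratios of 0.446 to 0.555. The median ratio was 0.572 for all regions above 200 input reads and 0.546 for those above 400, the stratum of these 5. The highest mitochondrial ratio lay above the latter median. Mitochondrial DNA carries no histones, and these regions had 885 to 1063 input reads. Of the 588 nuclear regions above 200 input reads, 227 (38.6%) had a ratio at or below the highest mitochondrial one, 109 of 322 in unplaced sequence and 85 of 191 in the remaining arms. Whether such regions carry the mark was not tested.

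γH2AvD regions lay close together. The median gap between a region and the nearest other one on the same sequence was 7950 bp (interquartile range 1500 to 35550 bp). Less than 1 kb separated 320 regions from their nearest neighbour, and 830 (53.1%, 50.6 to 55.6) were within 10 kb. Grouping regions less than 10 kb apart gave 298 clusters of 2 or more and left 733 regions alone. Of the clusters 180 held 2 regions, 60 held 3, 27 held 4 and 31 held 5 or more. Regions of U and Uextra lie on joined pieces of unplaced sequence, so distances there need not be distances in the genome.

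Spacing differed between the input strata. The 26 regions with 50 or fewer input reads were the most isolated, with a median gap of 69550 bp and 4 within 10 kb of another region. The median gap was 13400 bp at 51 to 100 input reads and 3425 bp in the next stratum, up to 200, where 301 of 414 regions (72.7%) were in clusters. It was 18200 bp for the stratum of more than 200 and up to 400 reads, with 103 of 262 regions (39.3%) in clusters. Above 400 reads it was 5350 bp, and 124 of 331 regions lay less than 1 kb from another. In the arms alone the high-input regions were the more crowded, with a median gap of 750 bp and 147 of 191 in clusters (77.0%), against 6300 bp and 488 of 818 (59.7%) at 200 or fewer input reads.

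**Figure D5:**
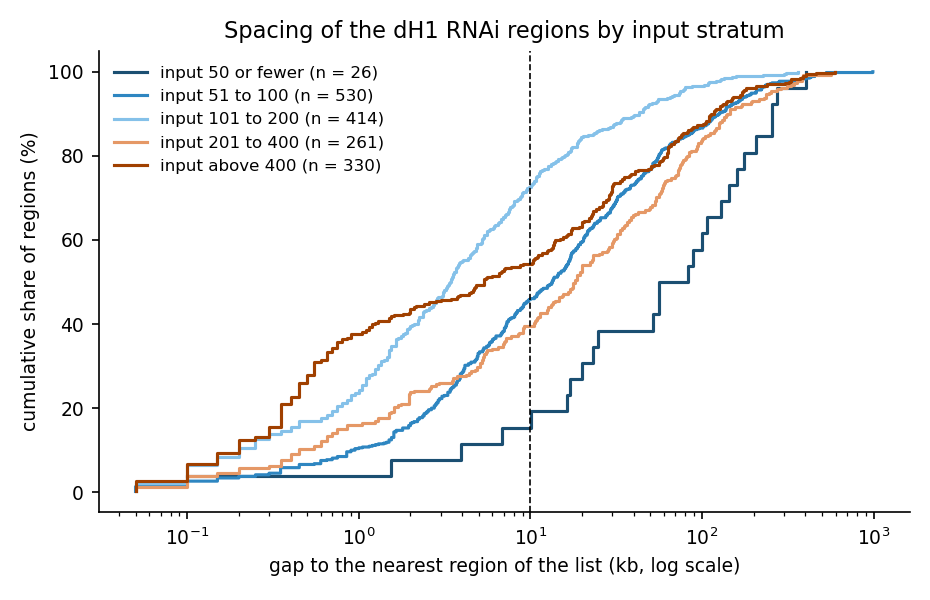
Cumulative share of dH1 RNAi regions (y axis, percent) by the gap to the nearest region of the list (x axis, kb, log scale) in the 5 strata of input reads; the dashed line marks 10 kb. Regions with 50 or fewer input reads are the most isolated, and those with more than 100 and up to 200 reach 72.7% within 10 kb.

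Neighbouring regions shared their input level. Of the 298 clusters, 178 held regions of 200 or fewer input reads only, 102 held regions above 200 only and 18 held both. For consecutive regions in the arms less than 10 kb apart, both lay on the same side of 200 input reads in 406 of 415 pairs (97.8%), and in 168 of 262 pairs (64.1%) at 100 kb or more. Their input counts differed by a median of 0.22 on the log2 scale in the close pairs and 0.63 in the distant ones, and their ratios by 0.16 and 0.47. Most of this followed the 2 input groups. With both regions at 200 or fewer input reads, the difference in input was 0.22 in 318 close and 0.29 in 145 distant pairs, and that in ratio 0.18 and 0.23.

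The largest clusters lay in the arms and were made of regions with ratios close to 1. The largest held 12 regions over 47.8 kb, from 24937851 to 24985650 of 3R, with 103 to 135 ChIP and 94 to 148 input reads, ratios of 0.771 to 1.36 and a median gap of 2950 bp. Regions covered 25.8% of its length, and 1 of the 12 overlapped a WT region. The next held 9 regions over 41 kb, from 3380501 to 3421500 of 2R, with ratios of 0.803 to 1.80 and 2 WT counterparts. It was followed by 8 regions from 19821501 to 19860600 of 2R (ratios 0.850 to 1.36, no WT counterpart), 7 from 3541151 to 3562750 of 2R (0.742 to 1.08, none) and 7 from 21605401 to 21633200 of 2L (0.739 to 0.951, 1 WT counterpart). Of the 9 clusters that held 6 regions, the one with the region of most ChIP reads lay from 22428951 to 22443950 of 2L. It was in the proximal 1 Mb, and regions covered 87% of its 15 kb. None of these 6 clusters held a region above 200 input reads, but another of 6 regions, from 25548651 to 25575700 of 3R, held 4, with 174 to 218 input reads.

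Along the arms the regions were unevenly spread. Of 117 full bins of 1 Mb, 8 were empty, the median bin held 7 regions and the fullest held 51. The 10 fullest bins held 287 of the 1073 regions in full bins (26.7%). The fullest was the bin from 3 to 4 Mb of 2R, followed by 33 regions from 5 to 6 Mb of 2R, 30 from 22 to 23 Mb of 2L, 29 from 21 to 22 Mb of 2L and 29 from 7 to 8 Mb of 2R. Of the 51 regions of the fullest bin 5 overlapped a WT region, and of the 30 from 22 to 23 Mb of 2L 15 did. The share was 13.7% in the list and 21.5% at 200 or fewer input reads, where all 30 and 48 of the 51 lay. The longest stretches without a region were 2945.8 kb from 6746950 to 9692751 of X, 2518 kb from 11534150 to 14052151 of X, 1805.25 kb from 8915050 to 10720301 of 3R, 1737 kb from 11262900 to 12999901 of 3L and 1555.05 kb from 8498650 to 10053701 of 3L.

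Input reads moved with the number of regions per bin. Among regions at 200 or fewer input reads, those in the fullest bin had a median of 139 input reads (interquartile range 113.5 to 152), against 100 (80.25 to 113) on the rest of 2R. Those from 21 to 22 Mb of 2L had a median of 142. Over the 76 full bins with at least 3 such regions, Spearman's correlation of their number with their median input was 0.584, as a description of bins that share 1 input library. It was 0.739 over 16 bins of 2L, 0.718 over 19 of 2R, 0.467 over 14 of 3L and 0.584 over 21 of 3R, and -0.15 over 6 of X. Copy number of these stretches in the cells was not tested.

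By chromosome, 2R held most regions and X the fewest per length among the arms. 2R held 312 regions, or 14.8 per Mb, against 9.08 on 2L, 8.76 on 3L, 8.92 on 3R and 4.77 on X. On X the input groups were nearly equal, with 53 of its 107 regions above 200 input reads, against 30 of 312 on 2R. In the arms away from telomeres and centromeres, X regions at 200 or fewer input reads had a median of 69.5 input reads and those of the autosomal arms 96. The ChIP medians were 95.5 and 102, the median ratios 1.26 and 1.06, and the regions with a WT counterpart 19 of 50 (38%) and 121 of 768 (15.8%). S2 cells derive from a male embryo and carry fewer copies of X than of the autosomes. The part of the input level in these ratios was not tested.

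Chromosome 4 and the Het scaffolds carried the highest share of regions with a high ratio. A ratio of 2 or more was found at 10 of 22 regions of chromosome 4 and 11 of 68 of the Het scaffolds, against 3.33% of the list. The numbers were 7 of 82 for the proximal 1 Mb, 22 of 1009 for the remaining arms and 2 of 376 for unplaced sequence. At 200 or fewer input reads, the median input of these 5 classes was 59, 84, 88, 95 and 154 reads in the same order. The shared regions of these classes numbered 16, 21, 31, 140 and 6. There the median ratios were 2.15, 2.09, 1.70, 1.49 and 0.831 after dH1 RNAi and 4.45, 4.03, 3.36, 2.64 and 1.38 in WT cells. The order was thus the same at regions that passed the caller in both lists. Whether the classes as a whole have this order in WT cells was not tested. The part of the input level in these ratios was not tested. After the region at 63851 to 65000, the strongest of chromosome 4 were 887151 to 888250 (146 and 41 reads, 3.56), 1047251 to 1048550 (200 and 70, 2.86), 1202051 to 1203050 (90 and 35, 2.57) and 87351 to 88500 (195 and 76, 2.57). A stretch of 3 regions from 341201 to 348250 differed from all others on chromosome 4, with 506 to 648 input reads and ratios of 0.488 to 0.603. On the Het scaffolds, 45 of 68 regions had more than 200 input reads, with a median ratio of 0.572, and the other 23 had a median ratio of 1.97. XHet and YHet held 1 region each, with ratios of 0.625 and 0.580.

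The proximal 1 Mb held 30 regions on 2L, 16 on X, 13 on 3R, 12 on 2R and 11 on 3L. The only telomeric region lay at 27824301 to 27824850 of 3R, with 165 over 284 reads (0.581). In unplaced sequence 94 of 376 regions (25%) were in clusters, against 635 of 1009 (62.9%) in the remaining arms. Its 376 regions had a median of 364.5 input reads and a median ratio of 0.607 (0.548 to 0.751).

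At loci with known repeats or regulation the list held both kinds of region. The windows used are approximate. The flamenco window of X, a piRNA cluster whose small RNAs silence gypsy-family transposons in somatic follicle cells, held 9 regions. A group of 4 from 21410401 to 21422600 had 396 to 482 input reads and ratios of 0.515 to 0.604. Closer to the centromere, 3 regions from 21477551 to 21490850 had 59 to 82 input reads and ratios of 1.10 to 1.56, followed by the X region with a ratio of 3.86 and by 1 with 440 input reads. The 4 regions of the 38C piRNA cluster on 2L formed 1 cluster, with 476 to 855 input reads and ratios of 0.523 to 0.668, and the 2 of the 42AB cluster on 2R had 315 and 776 input reads and ratios of 0.648 and 0.615. All 6 had more than 200 input reads, where 5 of 593 regions of the list (0.843%) overlapped a WT region, and none of the 6 did.

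The window of the histone gene cluster on 2L, a tandem array that includes the genes for dH1, held 2 regions near its edges. At 21426501 to 21427250 there were 122 ChIP and 168 input reads (0.726, 0.570 to 0.922), and at 21545201 to 21546150 there were 129 and 126 (1.02, 0.795 to 1.32). The bithorax complex, which holds the Hox genes of the posterior body, had 2, with 301 and 497 reads at 12586551 to 12588000 of 3R and 132 and 173 at 12816901 to 12819000. The heat shock loci 87A and 87C, which carry the Hsp70 genes, had 1 each, with 88 and 79 reads (1.11) and 95 and 71 reads (1.34). No region fell in the Antennapedia complex, the other Hox cluster. None of the 6 regions in the histone, bithorax and heat shock windows overlapped a WT region, against 13.7% of the list, a difference that 6 regions cannot show.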

How the data were processed

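γH2AvD ChIP-seq was deposited as region lists. The build was dm3, and the tools named in the submitters' processing notes were FastQC 0.10.1 and Bowtie 0.12.5. Regions came, per the file headers, from the CCAT mode of PeakRanger 1.16 (window 500 bp, step 50 bp, at least 4 reads and a fold of 3 per window, reads extended to 200 bp, FDR up to 0.1) on BAM files named as duplicate-marked. The treatment of duplicates and of multiply aligning reads is not stated, so repeat regions may share reads. The deposited read counts are whole numbers, not normalized. The deposited FDR, a p-value type column, was used only as the limit and to split the list. The deposited gene column was empty.

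Ratios, gaps, clusters (under 10 kb apart), strata of input count and overlaps (at least 1 bp) were computed with Python 3.11.15, numpy 2.4.6, pandas 2.3.3 and scipy 1.17.1, and the spacing, clustering and overlap code was tested on simulated data. No test between conditions was run, since there was 1 library of each kind. Regions were named as the 3 highest and the lowest ratio of each stratum, the 5 with most ChIP reads, most input reads and greatest width, the 6 largest clusters (ties by ChIP reads), the 5 longest gaps and those in 8 locus windows, plus the regions said to be singled out. The FDR subset, mitochondrial, telomeric and chromosome 4 regions were added. The members, lists and limits were chosen with earlier results of these data known. Sequences are not shown because no dm3 genome was used here.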

Additional observations from a re-analysis of the deposited data

How the results depend on the processing

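Of 59 alternative values, 32 stayed and 27 moved, where a count moved when it changed by over 1.5 times and a share or median when it left its 95% interval. The FDR limit of 0.001, leaving out the mitochondrial genome and the alternatives for regions with a ratio of 1.5 or more were chosen after seeing the data. No paired analysis was possible because there is 1 library of each kind. The cause of each change was not tested, apart from the regions an alternative removes or joins.

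The list held 976 and 109 regions at 5/3 and 10/3 of the lowest nuclear ratio, 970 at up to 200 input reads and 28 at an FDR of 0.001; an FDR of 0.05 removed none. The median width was 1150 bp at 10/3, 1000 bp after merging under 1 kb and 1325 bp at an FDR of 0.001. The median ratio was 1.07 at up to 200 input reads, 1.01 without unplaced sequence, 2.45 at an FDR of 0.001 and 0.891 weighted by width. ChIP reads reached input reads at 65.2%, 52.2% and 100% of regions under the first 3 of these. The high-input share was 43.3% and 31.6% with limits of 150 and 300 reads, 22.8% without unplaced sequence and 0 at an FDR of 0.001. It was 18.9% with a limit on reads per kb. That limit was the median of the regions above 200 input reads, so the lower share was largely set in advance. Clusters held 28.8%, 42.4%, 65.3% and 78.7% of regions at linking distances of 2, 5, 20 and 50 kb, and 62.0% without unplaced sequence, where the median gap was 4850 bp. WT regions overlapped 21.5% of regions at up to 200 input reads and 17.5% without unplaced sequence. The overlap of regions with a ratio of 1.5 or more stayed between 88.5% and 92.2%. Unknown depth limits every ratio.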
